A study of Gasterosteus aculeatus with 12 samples.

Results

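The ends of the autosomes, here the first and the last 2 Mb of chromosomes I to XXI other than the sex chromosome XIX, were examined in a list of accessible sites of stickleback male germ cells. A peak was assigned to an end by position alone, when its summit lay in the first 2 Mb of the chromosome or within 2 Mb of the end of the chromosome's last peak. The 40 ends of 20 autosomes held 8726 peaks, of 27459 on these autosomes and 35808 in the whole list. All other autosomal peaks, 18733 in number, are referred to as the interior. The list also held 1305 peaks on chromosome XIX and 7044 on unplaced scaffolds. Any such scaffold that belongs at a chromosome end is missing from the ends used here, and its effect was not analysed.

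The list came from ATACseq, which uses a transposase to insert sequencing adapters wherever chromatin is open, applied to primary spermatocytes of Gasterosteus aculeatus. These are male germ cells that have copied their DNA and are in the first meiotic division. Adult males of wild-derived marine and freshwater strains from the River Tyne were used, with 3 marine and 3 freshwater libraries, each from the pooled testes of 3 males and 50000 sorted cells, and with a naked DNA library per pool. The authors merged the 6 ATACseq libraries into 1 list of peaks on the gasAcu1 assembly, so that no peak carries a value per pool. The SDs and p-values below describe the spread between chromosomes or between ends, and the Poisson intervals of single ends cover counting error only. None of them describes the spread between animals or ecotypes. The list gives positions without gene names, and the identity of the sorted cells was not checked against markers here. The authors optimized their gate with a stain for DNA content and microscopy, then sorted by cell size and complexity alone.

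Chromosome ends are a special compartment in meiosis. In prophase of the first division the telomeres attach to the nuclear envelope and in many animals gather into a cluster, the bouquet, from which homologous chromosomes begin to pair. Meiotic recombination starts from programmed double-strand breaks, and in many vertebrates male crossovers lie mostly near the chromosome ends. Open chromatin in these cells also marks promoters and other regulatory sites, so the distribution of accessible sites along a chromosome is a background against which the positions of breaks and crossovers can be read.

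Open chromatin sites were packed more densely at the ends than inside the chromosomes. The ends of an autosome held 109 ± 26.3 peaks per Mb and the interior 62.3 ± 5.11 per Mb (SD, n = 20 autosomes), a ratio of 1.75. With both ends of a chromosome pooled, the ends were denser than the interior on 20 of 20 autosomes (difference 46.8 ± 24.6 peaks per Mb, sign-flip permutation test over chromosomes, two-sided, adjusted p = 1.8e-05, which rests on the smallest p that 100000 resamples can give). The ends make up 21.0% of the length of the autosomes and held 31.8% of their peaks. Lengths were taken to the last peak and include any unsequenced gaps of the assembly, which were not analysed here. According to the paper, some scaffolds of gasAcu1 are misoriented, and their orientation was corrected for its crossover maps. Here peak positions were used as given, and any effect of scaffold orientation on the ends was not analysed.

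The excess was not shared evenly by the 40 ends. Peak density ranged from 41.5 to 208.5 per Mb over the ends, with a median of 95.3. Inside the chromosomes, 142 consecutive windows of the same 2 Mb length ranged from 30.5 to 102.5 per Mb, with a median of 61.5. Thus 19 of 40 ends held more peaks than any interior window of any autosome, while no end held fewer than the poorest interior window. Compared with windows of its own chromosome, an end exceeded all of them in 26 of 40 cases and fell short of all of them in 3. The variance of the peak count was 41.7 times its mean over the ends and 5.91 times its mean over the interior windows, so the intervals for single ends given below, which cover counting error only, are far narrower than the spread between ends.

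**Figure D1:**
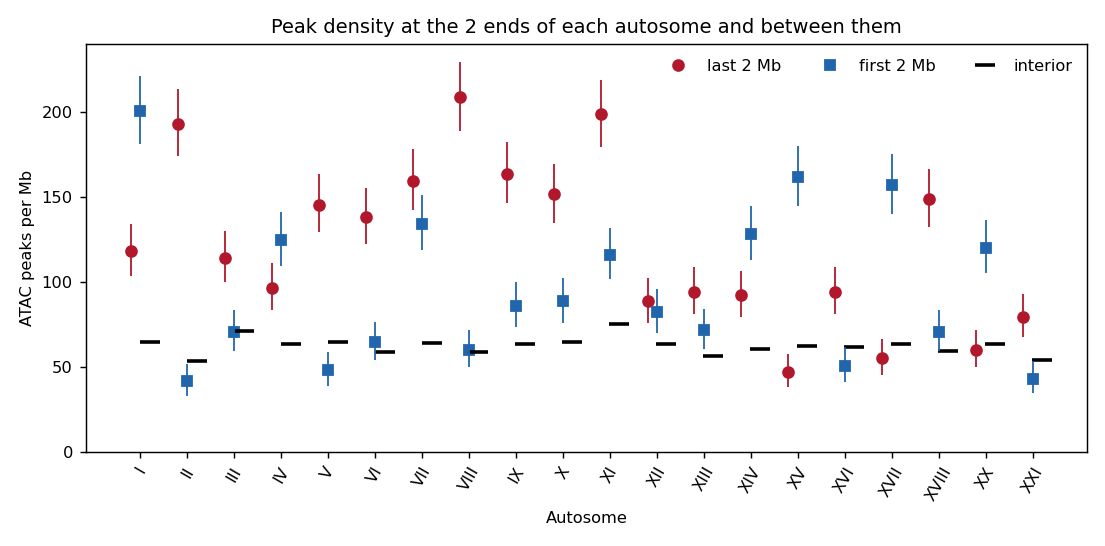
ATAC peaks per Mb (vertical axis) in the last 2 Mb (red circles), the first 2 Mb (blue squares) and the interior (black dashes) of each of the 20 autosomes, with vertical lines for exact 95% Poisson intervals of the end counts. The interior dashes sit between 53.3 and 75.2 per Mb, while the ends spread from 41.5 to 208.5 per Mb and mostly differ within a chromosome.

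The densest was the last end of chromosome VIII (positions 17365714 to 19365713, gasAcu1), with 417 peaks or 208.5 per Mb (95% Poisson interval 189.0 to 229.5). It was followed by the first end of I with 200.5 per Mb, the last end of XI with 198.5, the last end of II with 193 and the last end of IX with 163.5. These 5 ends were 2.59 to 3.62 times as dense as the interior of their own chromosomes. At the other extreme, the first end of II held 83 peaks or 41.5 per Mb (interval 33.1 to 51.4), followed by the first end of XXI with 43, the last end of XV with 47, the first end of V with 48 and the first end of XVI with 50.5 per Mb. These 5 poor ends held 0.744 to 0.816 times the density of their own interiors. Chromosome II thus carried both one of the richest ends and the poorest.

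Most autosomes had ends of unequal density. On 12 of 20 autosomes both ends were denser than the interior, on 8 a single end was, and on none did both ends fall below it. The denser end exceeded the poorer end at least 1.5 times on 15 of 20 autosomes and at least 2 times on 8. The largest difference was on chromosome II, with 193 peaks per Mb in the last end and 41.5 in the first, and the next on VIII, with 208.5 per Mb in the last end and 60 in the first. On chromosome XV the direction was the opposite, with 47 per Mb in the last end and 161.5 in the first. By the difference in peaks per Mb, the ends were most alike on XII (88.5 per Mb in the last end and 82 in the first), XIII (94 and 71.5 in the same order) and VII (159.5 and 134).

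Whether the last or the first end was the denser varied between autosomes. The last end held 122 ± 48.1 peaks per Mb and the first end 95.9 ± 44.7 (SD, n = 20). The last end was the denser on 14 of 20 autosomes, but the mean difference of 26.4 ± 76.5 per Mb (SD, n = 20) did not pass the threshold (sign-flip permutation test, p = 0.140, adjusted p = 0.140). Leaving out 1 autosome at a time gave an adjusted p of 0.0532 to 0.248 in the permutation test. The lowest came without chromosome XV, where the mean difference was 33.8 per Mb. Which end is first and which is last follows the numbering of the assembly. Across the 20 autosomes the densities of the last and the first end had a Pearson r of -0.36 and a Spearman rho of -0.31. This is a description over chromosomes that share 1 peak list.

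Among the large chromosomes, both ends of VII were dense, and chromosome IV, which carries many loci of marine and freshwater divergence, had 96.5 peaks per Mb in its last end and 124.5 in its first. Chromosome XI had 198.5 per Mb in its last end and 116 in its first, both above its interior of 75.2, the highest interior density of an autosome. Chromosome XXI, the shortest, had 79.5 in its last end and 43 in its first, on either side of its interior of 54.1.

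Weakly enriched peaks made up most of the excess, and strongly enriched peaks a smaller part. The fold enrichment is the authors' ratio of reads at the summit to the caller's background, and a value of at least 5 is used below to set stronger peaks apart from weaker ones. Weaker peaks numbered 73.6 ± 21.5 per Mb in the ends and 34.5 ± 3.31 in the interior (SD, n = 20), a ratio of 2.13, and were denser in the ends of 20 of 20 autosomes (sign-flip permutation test, adjusted p = 1.8e-05). Stronger peaks numbered 35.5 ± 7.39 per Mb in the ends and 27.8 ± 3.15 in the interior, a ratio of 1.28, and were denser in the ends of 17 of 20 (adjusted p = 6.43e-05 in the same permutation test). The excess of stronger peaks was 7.70 ± 6.46 per Mb, and 4.86 per Mb with ends of 3 Mb, while that of weaker peaks was 39.1 ± 20.5 per Mb, and 23.1 per Mb once the q-value had to be 1e-10 or lower. Peaks of at least 5 formed 32.5% of the peaks in the ends, where all autosomal peaks together gave 40.4%. The share was below that of the own interior in 34 of 40 ends.

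**Figure D2:**
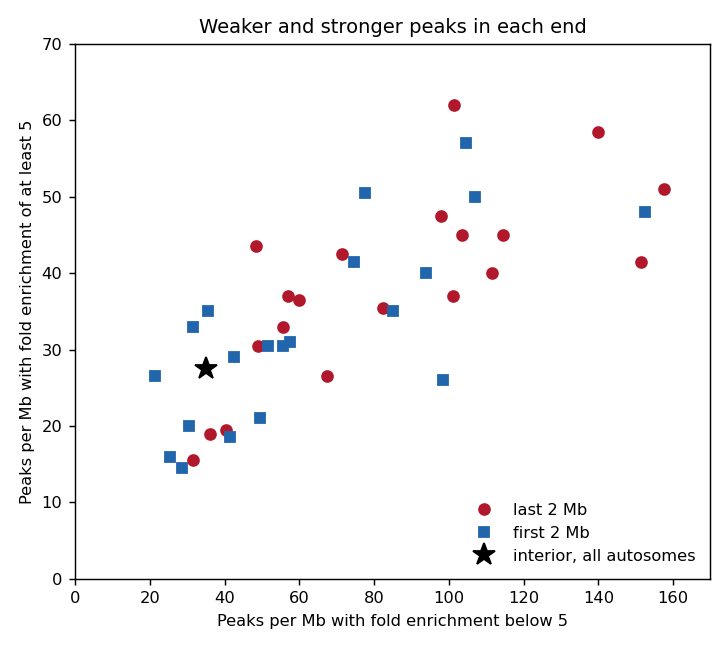
Density of stronger peaks, of fold enrichment 5 or more (vertical axis, peaks per Mb) against density of weaker peaks (horizontal axis, peaks per Mb) in each end, with last ends as red circles, first ends as blue squares and the pooled interior as a black star. Weaker peaks range from 21.5 to 157.5 per Mb over the ends and stronger peaks from 14.5 to 62 per Mb.

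Weak and strong peaks varied together from end to end. Weaker peaks ranged from 21.5 per Mb in the first end of V to 157.5 in the last end of VIII, and stronger peaks from 14.5 in the first end of XXI to 62 in the last end of IX. Over the 40 ends both densities together had a Pearson r of 0.76 and a Spearman rho of 0.80, a description over ends that share 1 list and in pairs a chromosome. The end with more weaker peaks was also the end with more stronger peaks on 19 of 20 autosomes. The exception was chromosome IV, whose last end had 36.5 stronger and 60 weaker peaks per Mb and whose first end had 26 stronger and 98.5 weaker peaks per Mb.

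The first end of IV also had the lowest share of stronger peaks, 20.9% of 249 peaks, and the first end of V the highest, 55.2% of 96 peaks. The first end of V stood out by its few weak sites, since its 26.5 stronger peaks per Mb lay close to the interior mean. In the last end of V, on the same chromosome, 98 weaker and 47.5 stronger peaks per Mb were found.

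The typical peak in an end was less enriched than the typical interior peak. The median fold enrichment averaged 2.83 ± 0.456 in the ends and 4.10 ± 0.410 in the interior (SD, n = 20), a mean log2 ratio of -0.55 ± 0.23, and was lower in the ends of 20 of 20 autosomes (sign-flip permutation test, adjusted p = 1.8e-05). Each of these medians was taken over the peaks of both ends of an autosome together, so a single end could lie above its interior. Over single ends it ran from 2.05 in the last end of II to 5.86 in the first end of V, where the interior of V had 4.15. Ends with more peaks had lower medians (Pearson r = -0.53, Spearman rho = -0.54 over 40 ends, again a description).

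Within the stronger peaks the order was the other way round. Their median fold enrichment averaged 11.6 ± 0.880 in the ends and 10.9 ± 0.347 in the interior, a mean log2 ratio of 0.09 ± 0.11, and was higher in the ends of 14 of 20 autosomes (adjusted p = 0.00347 in the sign-flip permutation test). The difference was small, about 1.06-fold, and the median ranged from 9.17 in the first end of II to 13.7 in the last end of XVII.

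Compared with all peaks, the ends were rich in peaks of the lowest fold enrichment, while peaks of the highest had about the share of all peaks. The ends held 44.2% of autosomal peaks below a fold enrichment of 2 and 32.0% of those of at least 20. Of all autosomal peaks they held 31.8%. Peaks below a fold enrichment of 2 were 2.97 times as dense in the ends as in the interior (35.6 and 12.0 per Mb). The ratio was 1.77 for values of 2 to 3 and 1.51 for 3 to 5, and it was lowest, at 1.19, for 5 to 10. It was 1.22 for 10 to 15, 1.49 for 15 to 20 and 1.77 for peaks of at least 20 (3.90 per Mb in the ends and 2.21 in the interior). The division into classes was a description, to which no test was applied. Peaks of at least 20 were more frequent per Mb in the ends than in the interior on 17 of 20 autosomes, and peaks below 2 on 20 of 20. All ends together had 312 peaks of at least 20 among their 8726 peaks. The last end of VIII, the end with the most peaks, had 25 of these among its 417 peaks, the most of any end. The first end of XVI, one of the 5 poorest ends, had none among its 101 peaks. These counts were not adjusted for the number of peaks in an end.

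**Figure D3:**
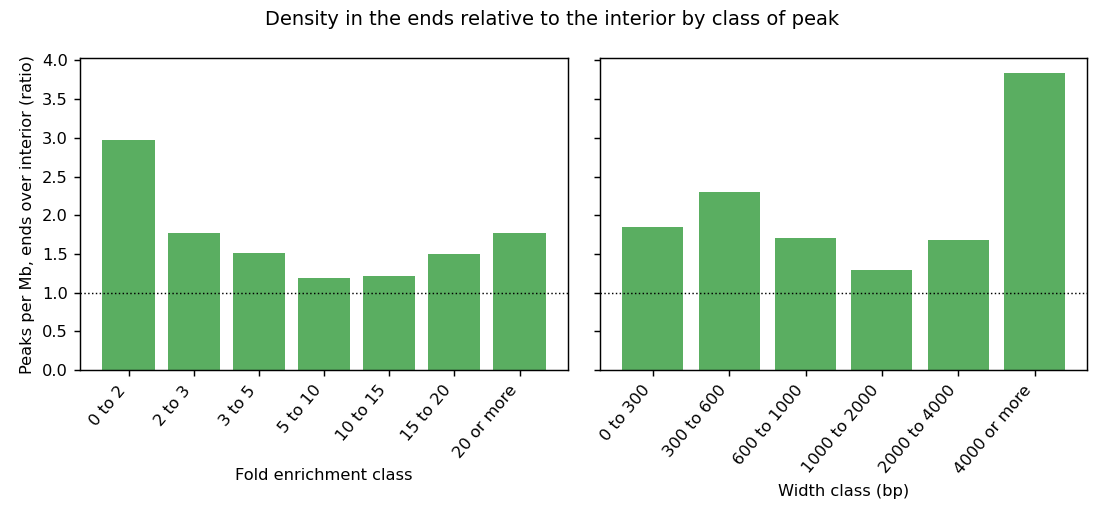
Ratio of peak density in the ends to that in the interior (vertical axis, dotted line at 1) for classes of fold enrichment (left) and of peak width in bp (right), pooled over the 20 autosomes. The bars of fold enrichment fall to 1.19 at 5 to 10 and stand at 2.97 below 2 and 1.77 at 20 or more, and the bar for peaks of 4000 bp or more reaches 3.84.

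The most enriched peak of all autosomes lay in an end, on chromosome I from 27846861 to 27851306 (gasAcu1), 295 kb from the end of the chromosome's last peak, with a fold enrichment of 33.7. The next in the ends were on chromosome XX from 19668139 to 19670831 with 33.2, on XVIII from 14403483 to 14405447 with 32.6, on V from 11511070 to 11513242 with 31.6 and on VIII from 18287364 to 18289949 with 31.2. All 5 lay in last ends, at 62.8 to 1878.1 kb from the boundary. The last end of XX that holds the second of them was itself a poor end, with 60 peaks per Mb, below its interior of 63.2. Peaks of at least 20 were not confined to last ends, which held 169 of them, with 143 in first ends. Peaks of any enrichment numbered 4890 in last ends and 3836 in first ends.

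The median peak was narrower in the ends, although peaks of 4000 bp or more had a higher density there than in the interior. The median width averaged 629 ± 67.9 bp in the ends and 811 ± 55.4 bp in the interior (SD, n = 20), a mean log2 ratio of -0.37 ± 0.17, and was smaller in the ends of 19 of 20 autosomes (sign-flip permutation test, adjusted p = 1.8e-05). Among stronger peaks alone the direction was reversed, with a mean log2 ratio of 0.14 ± 0.12 and wider peaks in the ends of 18 of 20 autosomes (adjusted p = 0.0001 in the permutation test). The pooled median widths of stronger peaks were 1676 bp in the ends and 1532 bp in the interior, against 414.5 bp and 393 bp for weaker peaks in the same order. Weaker peaks, the narrower class in both places, formed the larger share of the peaks in the ends. Single ends ran from a median of 497 bp in the first end of IV to 1111 bp in the first end of III.

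Of the 277 autosomal peaks of 4000 bp or more, 140 (50.5%) lay in the ends, a density 3.84 times that of the interior. For autosomal peaks of any width the share in the ends was 31.8% and the density ratio 1.75. Peaks of 4000 bp or more were more frequent per Mb in the ends on 20 of 20 autosomes, a count made after the classes had been seen and not tested. The first end of I had 13 of them among its 401 peaks, the most of any end, and 6 ends had none. All ends together had 140 among 8726 peaks, and the counts were not adjusted for the number of peaks in an end. The widest autosomal peak lay in the interior, and the ends held the 2nd, 3rd and 5th widest. The widest peak in an end spanned 12547 bp on chromosome XII from 18355829 to 18368375, 29.0 kb from the boundary, with a fold enrichment of 10.3. It was followed by peaks of 11008 bp on XVIII from 16162178 to 16173185, with a fold enrichment of 22.6, and of 9879 bp on VII from 27632055 to 27641933, with 5.72. All 3 lay in last ends and within 300 kb of the boundary. Of the 140 peaks of 4000 bp or more in the ends, 76 lay in last ends and 64 in first ends. Among peaks of any width, 4890 lay in last ends and 3836 in first ends.

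Together, the called peaks took up a larger share of the bases in the ends than in the interior. Peaks covered 10.9% of the ends and 6.42% of the interior, and the covered share was higher in the ends of 20 of 20 autosomes. Over the 40 ends it ranged from 3.74% in the first end of II to 20.5% in the first end of I, with 20.5% also in the last end of XI.

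Neighbouring peaks in the ends were close together. The median gap between the edges of neighbours averaged 3127 ± 1236 bp in the ends and 6520 ± 568 bp in the interior (SD, n = 20), a mean log2 ratio of -1.15 ± 0.55, and was shorter in the ends of 19 of 20 autosomes (sign-flip permutation test, adjusted p = 3e-05). The median gap ran from 1269 bp in the first end of I to 13840 bp in the first end of II. Gaps under 500 bp formed 19.6% of all gaps in the ends and 12.3% in the interior. With peaks closer than 500 bp joined into 1, the ends still exceeded the interior by 33.1 peaks per Mb on average and on 20 of 20 autosomes (adjusted p = 3e-05, the same permutation test).

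Long stretches without a peak occurred in the ends as well. Gaps over 50 kb numbered 203 in the ends, or 25.4 per 10 Mb, and 1233 in the interior, or 41.0 per 10 Mb. The longest in the ends was 261875 bp, from 1491804 to 1753678 in the first end of XVIII. Stretches of 257096 bp in the first end of XXI (885790 to 1142885) and of 255990 bp in the first end of IV (1459168 to 1715157) came next. The last of these lay in an end that was denser than every 2 Mb window inside chromosome IV.

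Inside the ends, density fell with distance from the end of the chromosome. The mean over the 40 ends was 154 ± 93.2 peaks per Mb in the outermost 250 kb (SD, n = 40 ends), 139 ± 82.9 in the next 250 kb, 124 ± 72.6 at 500 to 750 kb and 115 ± 75.3 at 750 to 1000 kb. From 1 Mb on it stayed between 80.2 and 95.3 per Mb up to 2 Mb. At the 2 Mb boundary the mean stepped from 82.6 per Mb just inside (1.75 to 2 Mb) to 68.6 just outside (2 to 2.25 Mb). The step was seen in the last ends, with means of 100 and 68 per Mb in the same order. The first ends had 65.2 and 69.2. Between 1 and 2 Mb the last ends showed no further fall, with means of 88.6 to 100 per Mb. The first ends ranged from 65.2 to 102 over these bins. From 2 to 5 Mb the means over the 40 ends lay between 56.1 and 72.8 per Mb. The interior beyond 5 Mb from either end had 61.1 per Mb.

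Summed over both ends of an autosome, the outermost 500 kb held 147 ± 39.1 peaks per Mb and the innermost 500 kb of the ends 81.4 ± 20.5 (SD, n = 20). The outermost part was denser on 20 of 20 autosomes (difference 65.4 ± 43.0 per Mb, sign-flip permutation test, adjusted p = 1.8e-05). The difference was 39.5 per Mb with the stricter q-value (17 of 20 autosomes) and 41.7 per Mb with close peaks joined (18 of 20). For single ends the order held less regularly, in 17 of 20 last ends and 14 of 20 first ends.

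The decline was steeper in weaker peaks. Their mean density was 107 ± 76.5 per Mb in the outermost 250 kb and 51.3 ± 29.4 at 1.75 to 2 Mb (SD, n = 40 ends). For stronger peaks the corresponding means were 47.1 ± 24.0 and 31.3 ± 18.5 per Mb. With stronger peaks alone the difference between the outermost and innermost 500 kb was 12.1 per Mb (15 of 20 autosomes, adjusted p = 0.00751 in the permutation test). The share of stronger peaks was 30.6% in the outermost 250 kb and 37.9% at 1.75 to 2 Mb, and the pooled median fold enrichment of all peaks was 2.44 and 3.27 at the same distances. The median width, at 609 bp and 677.5 bp, changed less.

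**Figure D4:**
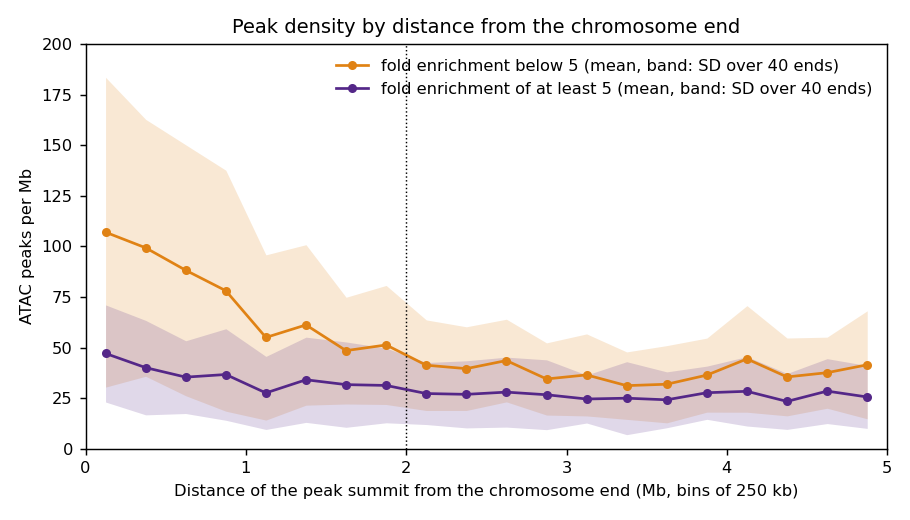
Mean density of weaker (orange) and stronger (purple) peaks (vertical axis, peaks per Mb) in bins of 250 kb by distance of the summit from the chromosome end (horizontal axis, Mb), with bands of 1 SD over the 40 ends and a dotted line at 2 Mb. Weaker peaks stand at 107 per Mb in the outermost bin and at 51.3 in the last bin before the dotted line, and stronger peaks at 47.1 and 31.3.

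Individual ends departed from the mean profile. The densest bin of 250 kb was the outermost in 14 of 40 ends and lay within the outermost 500 kb in 21, but it lay beyond 1 Mb in 9. The last end of V was the most concentrated, with 98 peaks in its outermost 250 kb (11996536 to 12246535), of which 81 were weaker peaks, and 40 in the next bin. The first end of XV held 91 peaks in its outermost 250 kb (1 to 250000), 23 of them of at least 5, and 54 in the next. By contrast, the last end of XI had 59, 66, 65 and 88 peaks in its 4 outermost bins and 31 in the one after, so that its richest bin, from 15705162 to 15955161, lay 750 to 1000 kb from the end. The last end of II was evenly rich, with 40 to 62 peaks in each of its 6 outermost bins. The first end of II had at most 21 peaks and the first end of XXI at most 17 in any bin. Of all 320 bins in the ends, only 1 was empty, at 1.5 to 1.75 Mb in the first end of XVIII.

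**Figure D5:**
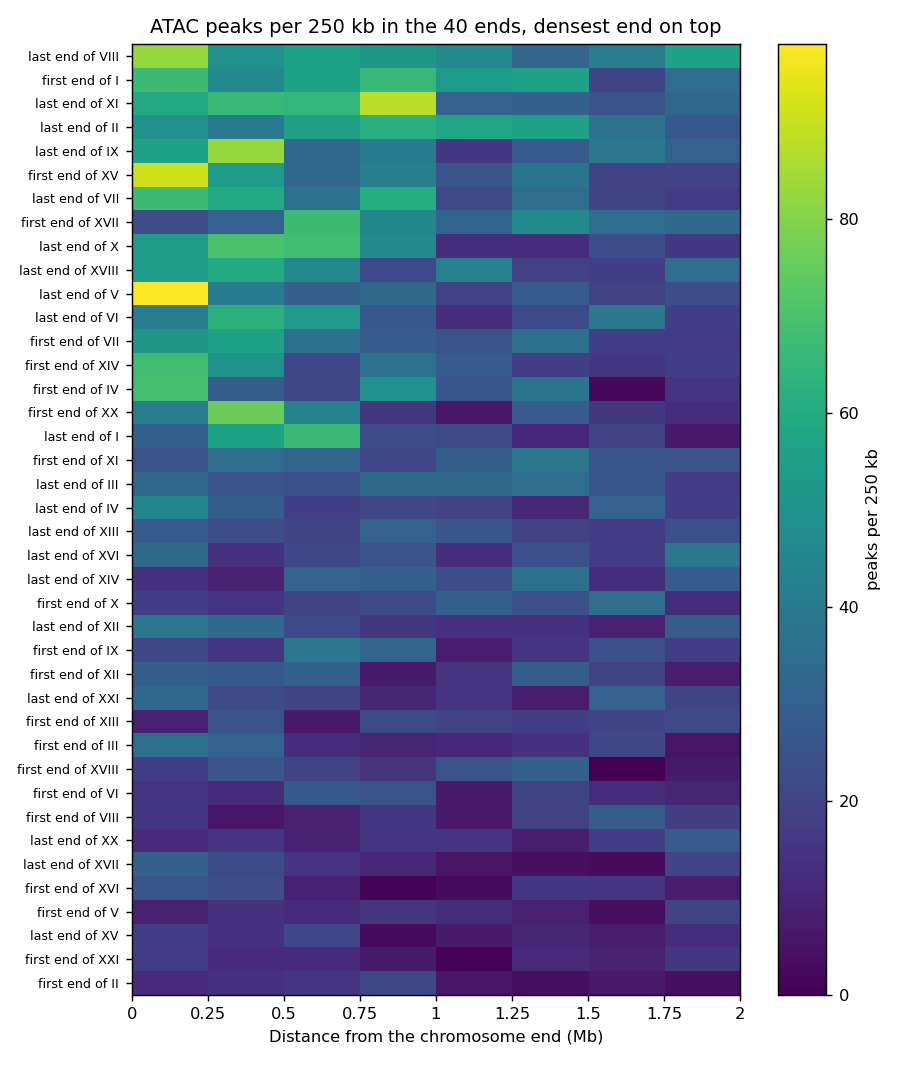
Number of ATAC peaks per 250 kb (colour scale) in each of the 40 ends (rows, densest on top) by distance from the chromosome end (horizontal axis, Mb). The highest bins, with 98, 91 and 88 peaks, are in the last end of V, the first end of XV and the last end of XI, and the 5 rows at the bottom stay at 26 peaks or fewer in every bin.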

How the data were processed

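The deposited file is 1 narrowPeak list for the 6 ATACseq libraries merged. Per the authors' methods, it was made with MACS2 from reads placed on gasAcu1. Each library entered at the same depth and without duplicate or mitochondrial reads. The aligner and the background used for calling are not given in the sources used here. The fold enrichment (a ratio), the −log10 q-value and the score (the whole part of 10 times the −log10 q-value in all 35808 peaks) are the authors'. The naked DNA libraries and the depth of single libraries were not analysed here.

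Peaks were placed by summit. Values per autosome were compared by a sign-flip permutation test, two-sided, over 20 autosomes (100000 resamples), with Benjamini-Hochberg adjustment over 9 results, or, for an alternative, over the 5 to 9 results run under it. Chromosomes share 1 list and are not biological replicates, so these p-values measure only the spread between chromosomes. Placement and the test of the first result, peak density of the ends against the interior, were checked on simulated data. The simulated peaks were scattered independently within the ends and within the interior. The other results, and clustered peaks, were not simulated. The regions, classes and tests were chosen with earlier results of these data known. By a fixed rule, the ends named are the 5 densest and 5 poorest, the 3 most and 3 least asymmetric autosomes, the extremes of each measure and chromosomes IV, XI and XXI; the peaks named are the 5 most enriched and 3 widest, with the 3 longest gaps and 3 densest bins. Counts of peaks of at least 20 or below 2, of wide peaks and other ends were chosen after their values were seen. The alternatives changed the peaks kept, the length and origin of the ends, the joining of peaks, the interior, the point that places a peak and the autosomes included. The software was SciPy 1.17.1, pandas 2.3.3 and NumPy 2.4.6 under Python 3.11.15, with Matplotlib 3.10.9 for figures. No sequence is shown, since a genome of this build was not used here.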

Additional observations from a re-analysis of the deposited data

How the results depend on the processing

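Of 64 combinations of a result with an alternative, 63 kept the direction and the side of the threshold. The exception was the median width of peaks, whose log2 ratio between ends and interior was -0.37 for all peaks and 0.14 for stronger peaks alone (fold enrichment 5 or more); the larger share of weaker, narrower peaks in the ends enters the first value and not the second. The excess of the ends lay between 7.70 and 68.0 peaks per Mb, lowest for peaks of at least 5 and highest for ends of 1 Mb, and was 30.9 per Mb when the q-value had to be 1e-10 or lower. With that q-value the log2 ratio of median widths was -0.17, and for stronger peaks alone that of median spacing was -0.38. The same q-value left the density and the median fold enrichment of the stronger peaks unchanged. The density for peaks of at least 5 is itself among the main results. These combinations are included in the 63, but their outcome was set by the main results. They are therefore no further check. The difference between last and first ends stayed short of the threshold, at 5.65 to 37.9 per Mb (adjusted p of 0.127 to 0.210, permutation tests), and at 0.0532 to 0.248 with an autosome left out. Leaving out each autosome in turn kept all 180 calls, with an excess of 44.2 to 48.9 peaks per Mb. No paired analysis was possible because the list pools all 6 libraries, and for that reason no library could be left out. How library depth limits the weaker peaks was not analysed here.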

Other observations

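Peaks with a q-value above 1e-10, nearer to the caller's threshold, formed 22.4% of the peaks in the ends and 13.9% of those in the interior, and the median −log10 q-value was 38.2 in the ends and 88.7 in the interior. The mean density of both ends and the length of the chromosome had a Pearson r of 0.47 and a Spearman rho of 0.37 over 20 autosomes, and the density of an end and that of its interior an r of 0.22 and a rho of 0.25 over 40 ends. Over the 40 ends, density and the median fold enrichment of the stronger peaks had an r of 0.18 and a rho of 0.17. These values describe ends that share 1 peak list and were not tested. The first peak of a chromosome began at most 52441 bp from its first base, on chromosome XXI, while the last end was placed at the last peak by definition.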
